A study of Mus musculus with 9 samples.

Results

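Cbx7 and Npcd are a pair of genes on mouse chromosome 15, and they were 2 of the 2402 genes with normalized counts in this series. They were picked by name, having been selected on their levels over the 9 libraries of the table, so those levels are given as a description and no test of them was made. Both passed the filter on low values (10 or more normalized counts in 2 or more libraries), as did 2341 genes in all. The series is RNA sequencing of cells sorted by flow cytometry from the bone marrow of male C57BL/6 mice, which carried a Flt3-driven Cre recombinase and the mTmG reporter. In such mice a cell is red (Tom+) by default and turns green (GFP+) for good, with all its descendants, once Cre has been made, so the colour records whether Flt3 was ever expressed on the way to that cell. The labels describe 2 samples of Tom+ megakaryocyte progenitors (MkP, the precursors of platelet-producing megakaryocytes) from old mice of 18 to 20 months, 2 samples of GFP+ MkP from old mice, 2 samples of old haematopoietic stem cells (HSC) that were Tom+, and, from young mice, 3 samples of GFP+ MkP taken at 3 months of age. Whether each sample came from 1 mouse is not given in the sources used here.

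No sample names stand in the 9 rows of the table, and no row was matched to a group, so no comparison of age, reporter colour or cell type was made. Libraries are called 1 to 9 by their row. Their values corresponded to 1790670 to 4373460 reads over the genes listed, which are part of each library and not its depth. Libraries 3 and 4 stood apart from the rest. The summed level of the 6 measured of 10 HSC marker genes was 18573 and 12063 normalized counts there and 83.7 to 515 in the other 7 libraries, and the summed level of the 6 measured of 8 MkP marker genes was 3040 and 8759 there, against 74421 to 140340 in the others. Of 11 markers of other blood cells, 10 passed the filter. Of these, 3 were highest and 4 lowest in libraries 3 and 4, beside 51.0% and 40.8% of all filtered genes. The sum of the 11 markers was 13165 and 13063 in libraries 3 and 4 and 4354 to 29719 in the others. The granulocyte gene Prtn3 had 12248 and 11466 normalized counts there and 313 to 2006 in the others. The granulocyte receptor gene Csf3r had 668 and 862 there and at most 120 in the others. Opposite to these, the monocyte receptor gene Csf1r had 0 and 1.14 there and 3.07 to 82.6 in the others. The killer cell gene Nkg7 had 185 and 667 there and 2153 to 27162 in the others. Opposite to Nkg7, the T cell gene Lck had 44.8 and 43.5 there and at most 26.8 in the others. The erythroid genes Rhd, Ermap and Add2 had at most 9.15, 5.72 and 3.54 in libraries 3 and 4. In library 8 they were also low, at 3.15, 10.5 and 2.1. The remaining libraries had at least 98.5, 50.7 and 15.9. The part of these markers in the levels of the pair was not tested. Ranges, ratios and likeness of the pair are given with and without these libraries. In sorted bulk samples, fewer cells of a type and less RNA per cell cannot be told apart.

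Cbx7 encodes a chromobox protein of the canonical Polycomb repressive complex PRC1. Its chromodomain binds histone H3 tails that the partner complex PRC2 has methylated, and PRC1 then keeps the marked genes silent, the cell cycle inhibitor locus Cdkn2a being the textbook target. In mouse blood stem cells Cbx7 is known as the chromobox member that favours self-renewal, while other chromobox proteins that can take its place in PRC1 favour differentiation. Npcd, short for neuronal pentraxin with chromo domain, is a readthrough locus: its transcripts start in another chromobox gene, Cbx6, and run on into the neuronal pentraxin receptor gene Nptxr.

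The annotation does not place Npcd over Cbx7. In GENCODE M21, which annotates the mm10 build named in the submitters' processing notes, the protein-coding gene Cbx7 (ENSMUSG00000053411.16) lies on chromosome 15 from 79915807 to 79971119, and the protein-coding gene Npcd (ENSMUSG00000089837.9) from 79789675 to 79834237. Both are on the minus strand, and 81569 bases lie between them, a stretch that holds Apobec3, a gene of the opposite strand. Of the 1453 exonic bases of Npcd, 0 are exonic in Cbx7, 563 (38.7%) are exonic in Cbx6 and 890 (61.3%) are exonic in Nptxr, all on the same strand. Together this is 100% of the exonic bases of Npcd. Cbx7 has 6487 exonic bases, of which 100 (1.54%) overlap Apobec3 on the other strand. RefSeq's GRCm38.p6 annotation lists Cbx6-Nptxr as a synonym of Npcd, and there Npcd and Cbx6 begin at the same base, 79834333. It also lists Npcd as a synonym of Nptxr. In RefSeq both Npcd and Nptxr extend to 79786351, beyond the GENCODE limit of Npcd at 79789675. The counts of shared exonic bases above hold for GENCODE M21 alone.

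**Figure D1:**
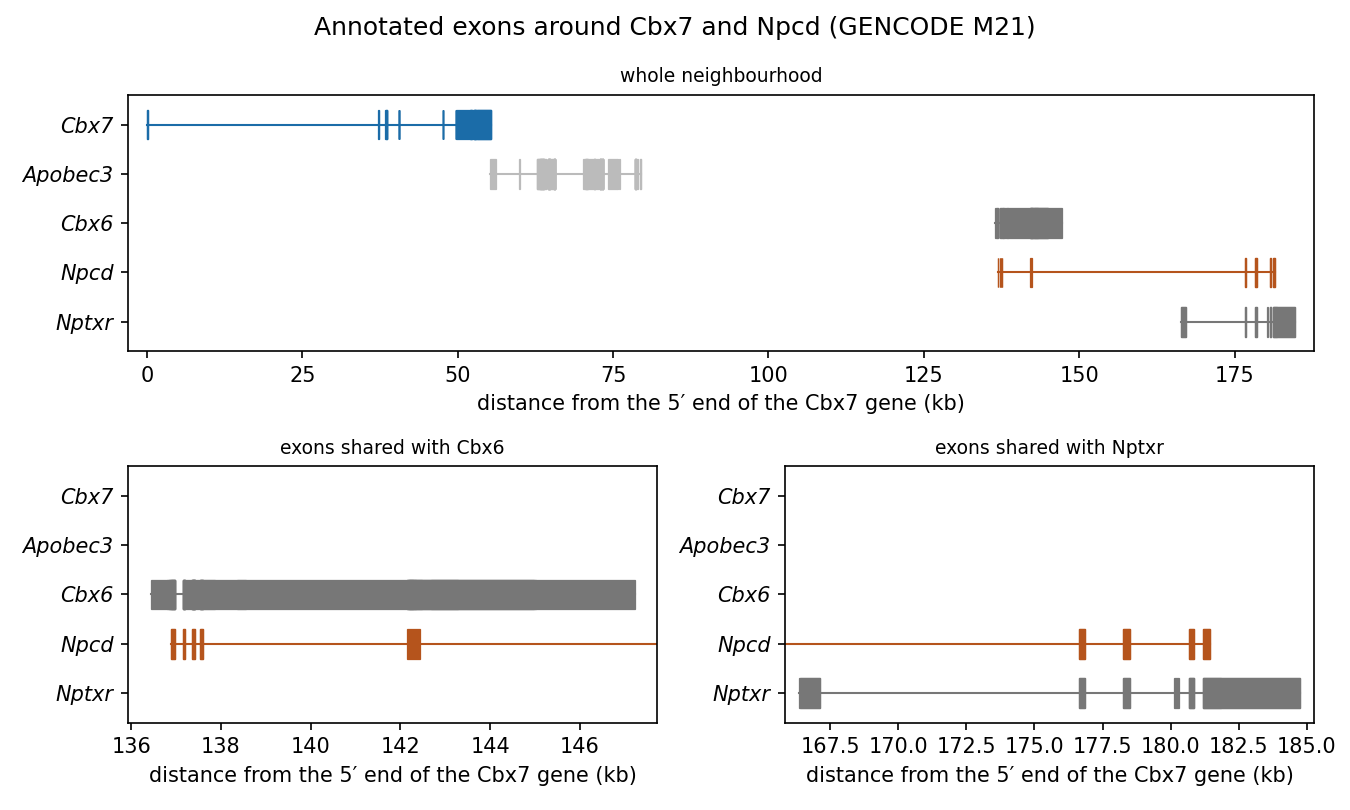
Exons of 5 genes in GENCODE M21, by distance in kb from the 5′ end of the Cbx7 gene, with transcription of all but Apobec3 running from left to right; boxes are exons of any transcript and lines are gene spans. The lower panels enlarge the stretches of Cbx6 and Nptxr, and every Npcd exon lies over an exon of one or the other and none lies over Cbx7.

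By exact match, Npcd thus shares its sequence with Cbx6 and Nptxr and not with Cbx7. Stretches that match with some differences were not searched. Likeness between the chromodomain parts of Npcd and Cbx7 was therefore not tested. Over the annotated transcripts, 0 of the 1450 different 50-base stretches of Npcd occur in Cbx7 transcripts and 0 do at 30 bases. At 50 bases 515 of them (35.5%) occur in Cbx6 transcripts and 843 (58.1%) in Nptxr transcripts, which leaves 92 (6.34%) that occur in no other gene. At 30 bases 52 (3.59%) occur in no other gene. All of these cross the junction at which a Cbx6 exon is joined to a Nptxr exon. The sequence at that junction is shown because a read that holds it is of the only kind that annotated Npcd transcripts do not share with their 2 host genes. Of the 2 annotated transcripts, Npcd-201 (8 exons, 1162 bases) joins the exon at chr15:79833512-79833578 to the exon at chr15:79794256-79794475, and Npcd-202 (9 exons, 1453 bases) joins the exon at chr15:79828688-79828978 to the same Nptxr exon. The 20 bases on each side, from the GENCODE M21 transcripts, 5′ to 3′ on the minus strand, with the Nptxr part in capitals, are:
Npcd-201: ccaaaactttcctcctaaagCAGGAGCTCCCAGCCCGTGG
Npcd-202: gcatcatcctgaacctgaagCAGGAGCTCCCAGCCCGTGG
Neither sequence occurs in a Cbx6 or Nptxr transcript of that release. Cbx6 and Nptxr were not analysed here, and how reads were assigned to genes is not given in the sources used here. So the Npcd column can hold reads of Cbx6, of Nptxr or of the readthrough transcript, and these cannot be told apart. Values called Npcd below are values of that column. By contrast, 6661 of the 6712 50-base stretches of Cbx7 (99.2%) occur in no other gene.

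The promoters are shown because Cbx7 and Npcd have separate starts while their columns moved together, and because Npcd shares its start with Cbx6. RefSeq's table for GRCm38.p6 gives a 300-base window, 250 before the start of transcription to 50 after it, for Cbx7 (chr15:79932597-79932896) and for Cbx6 (chr15:79834284-79834583), both on the minus strand. The Cbx7 window lies inside the gene's longer GENCODE span. Npcd and Nptxr had no entry. The windows read 5′ to 3′, with CpG dinucleotides in capitals, are:
Cbx7: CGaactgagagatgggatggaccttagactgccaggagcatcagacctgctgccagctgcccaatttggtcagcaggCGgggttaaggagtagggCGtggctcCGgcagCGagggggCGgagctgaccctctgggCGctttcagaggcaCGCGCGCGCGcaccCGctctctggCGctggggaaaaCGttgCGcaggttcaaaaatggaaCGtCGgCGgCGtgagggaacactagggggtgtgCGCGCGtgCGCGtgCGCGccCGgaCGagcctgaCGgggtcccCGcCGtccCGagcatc
Cbx6: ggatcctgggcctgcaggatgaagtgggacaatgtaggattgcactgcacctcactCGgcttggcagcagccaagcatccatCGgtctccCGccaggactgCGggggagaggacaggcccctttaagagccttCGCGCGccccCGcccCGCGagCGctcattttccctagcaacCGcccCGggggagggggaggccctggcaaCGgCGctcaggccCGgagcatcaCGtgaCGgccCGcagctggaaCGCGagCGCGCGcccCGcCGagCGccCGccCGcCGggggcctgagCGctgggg
The Cbx7 window has 33 CpG dinucleotides and 67.3% G and C, and the Cbx6 window has 31 and 71.7%. Over all 32851 promoter windows the median was 7 CpG dinucleotides and 52.7% G and C, and 8.56% and 10.6% of windows had at least as many CpG dinucleotides as Cbx7 and Cbx6. On either strand the Cbx7 window holds 1 GC box (GGGCGG) and the Cbx6 window 3, a motif found in 35.7% of all windows. An E-box (CANNTG) occurs 1 time in Cbx7 and 2 times in Cbx6, and in 72.3% of all windows. The letters AGATAA of the GATA core (11.2% of all windows), TGTGGT of the RUNX core (16.8%) and GGAAG of the ETS core (71.4%) are in neither window. In both windows, 0 matches overlapped a match of another motif.

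Cbx7 messenger RNA was low in most libraries and many-fold higher in libraries 3 and 4. Libraries 1 to 9 had 37.7, 58.9, 504, 407, 43.5, 32.2, 41.5, 123 and 61.6 normalized counts of Cbx7. Library 3 was the highest and library 4 came next, library 8 lay between these and the rest, and the other 6 libraries lay between 32.2 and 61.6. These values rest on 23 to 427 reads a library and 1128 reads in all. The highest library was 15.7 times the lowest (95% exact counting interval 10.3 to 25.0), and without libraries 3 and 4 the range was 3.81-fold (interval 2.42 to 6.25), with library 8 at the top. Such intervals cover counting error alone, and do not allow for having picked the extreme libraries. Ordered by level, only 3 of the 8 steps between neighbouring libraries exceeded counting error, namely 3 over 4 (1.24-fold, interval 1.07 to 1.43), 4 over 8 (3.32-fold, 2.69 to 4.13) and 8 over 9 (1.99-fold, 1.49 to 2.67). Below library 8, no library differed from its neighbour beyond counting error.

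The Npcd column had the same order of libraries. Libraries 1 to 9 had 107, 147, 1775, 1198, 116, 99.3, 107, 407 and 201 normalized counts, from 65 to 1505 reads a library and 3605 reads in all. Again library 3 was the highest, then 4, 8 and 9, and libraries 1, 5, 6 and 7 lay close together at 99.3 to 116. The range was 17.9-fold (interval 14.1 to 23.0) and, without libraries 3 and 4, 4.10-fold (3.17 to 5.35). With more reads than Cbx7, 4 of the 8 steps between neighbouring libraries exceeded counting error, the additional one being library 9 over library 2 (1.36-fold, 1.05 to 1.78). Both genes belong to the 51.0% of the 2341 filtered genes whose 2 highest libraries were 3 and 4, and to the 66.4% with a range of at least 4-fold, so neither feature by itself sets them apart.

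**Figure D2:**
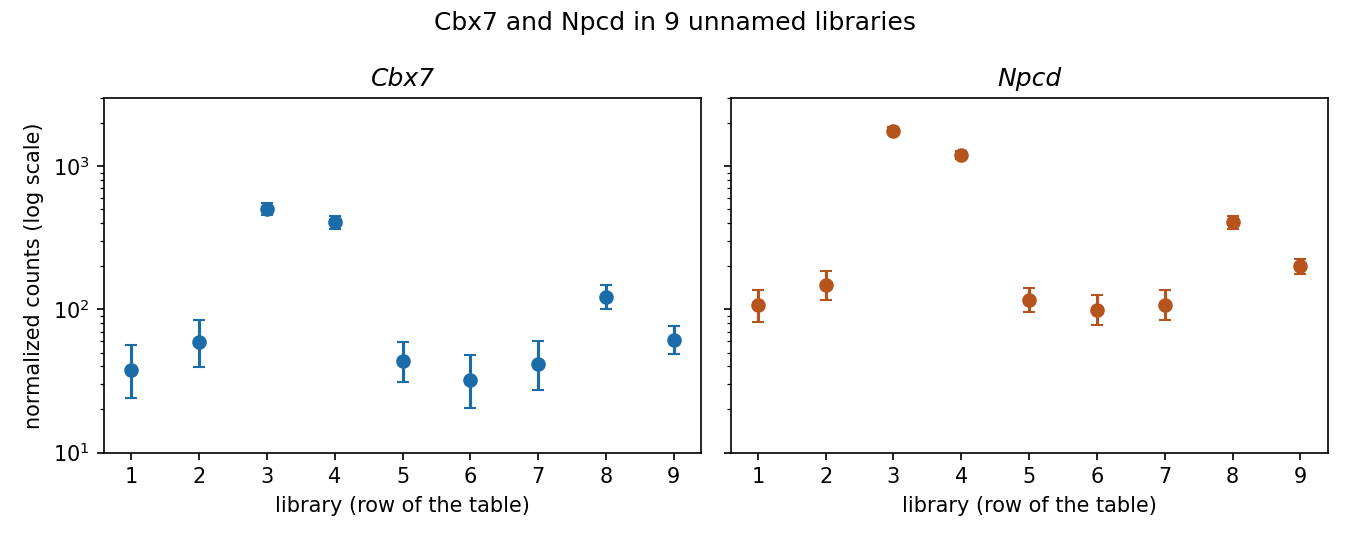
Normalized counts of Cbx7 (left) and Npcd (right) in each of the 9 libraries on a log scale, with 95% Poisson intervals of the reads as bars. In both panels libraries 3 and 4 are highest, library 8 comes next, and libraries 1, 5, 6 and 7 are lowest.

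The ratio of the columns varied little. Since both genes are counted in the same library, this ratio does not depend on how libraries were scaled. There were 2.83, 2.50, 3.52, 2.94, 2.68, 3.09, 2.59, 3.32 and 3.26 Npcd reads per Cbx7 read in libraries 1 to 9, and 3.20 (95% exact interval 2.99 to 3.42) over all libraries summed. The highest ratio, in library 3, was 1.41 times the lowest, in library 2 (exact interval 0.878 to 2.21), while each gene ranged more than 15-fold. Without libraries 3 and 4 the ratios still lay between 2.50 and 3.32. The interval of every library held the summed ratio. The standard deviation of the log2 ratio over the 9 libraries was 0.17, below the 0.26 that counting error alone gives on average at these read numbers. Of the 36 pairs of libraries, 1 had ratios that differed beyond counting error, namely the most deeply counted pair, library 3 over library 4 (1.20-fold, interval 1.02 to 1.41, not adjusted for the 36 pairs). In the 5 libraries with the fewest reads of the pair, the intervals all spanned 1.91 to 3.95, so differences within that span were not detectable there. The ratio is one of reads and not of transcript numbers, because the length counted for each gene is not given in the sources used here.

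**Figure D3:**
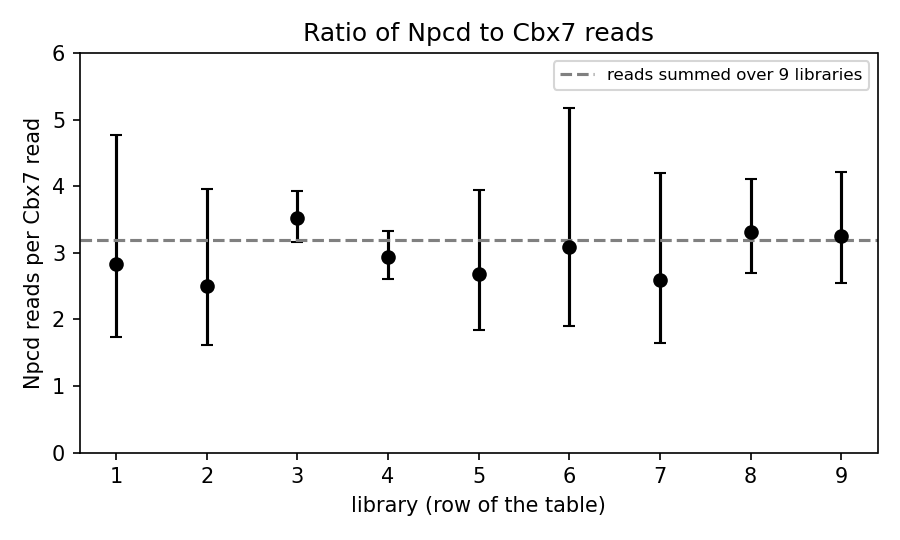
Npcd reads per Cbx7 read in each library, with 95% exact binomial intervals, and the ratio of the reads summed over the 9 libraries (dashed, 3.20). Every interval crosses the dashed line, and the points lie between 2.50 and 3.52.

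Because libraries 3 and 4 form a cluster of their own, no correlation over all 9 libraries is given. Over the other 7, log2 values of Cbx7 and Npcd had a Pearson r of 0.98 and a Spearman rho of 1. Leaving out the 2 libraries farthest from the Cbx7 median, 8 and 9, r was 0.97 over 5 libraries. These are descriptions with no p-value, and the 7 points share their library, its depth and its scaling. Among the 5 libraries left, neighbouring levels of Cbx7 did not differ beyond counting error. In the deposited scaling all 9 libraries had the same rank for both genes. Under scaling to the table total, median-of-ratios scaling and quantile normalization, 7 of 9 had.

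In the deposited scaling, each member was the other's closest match in the table. Departure was measured as the root mean square difference of log2(normalized count + 1) after each gene's mean was subtracted, so it is 0 for genes that change in proportion. Npcd departed from Cbx7 by 0.17, the smallest of 2340 genes, whose median was 1.23, and Cbx7 had the smallest departure from Npcd as well (median of all genes 1.30). The members also ranked first for each other under scaling to the table total and median-of-ratios scaling. Under quantile normalization the pair departed by 0.54, and Npcd then stood at rank 174 for Cbx7 and Cbx7 at rank 77 for Npcd. Without libraries 3 and 4, in the deposited scaling, the pair departed by 0.15. Of the 2339 other filtered genes, 0 ranked the 9 libraries in the order of Cbx7 in the deposited scaling. Only 3 of the 8 steps in that order exceeded counting error for Cbx7. Closeness like that of the pair was rare but not confined to it. Among 313 genes with a range of at least 10-fold and at least 10 reads in every library, 83 of 48828 pairs (0.170%) were as close as Cbx7 and Npcd or closer, and 317 pairs had the same order of libraries. Over the 7 libraries without 3 and 4, Npcd stood at rank 2 of 2340 genes by Pearson r with Cbx7, and 59 genes exceeded an r of 0.9. In the other direction Cbx7 stood at rank 5 for Npcd, and 99 genes exceeded that r.

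**Figure D4:**
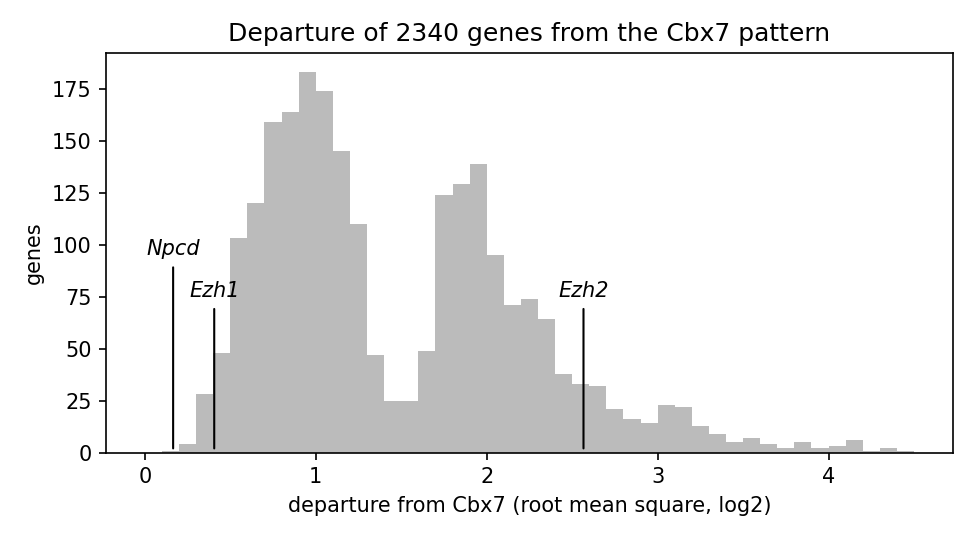
Histogram of the departure from Cbx7 (root mean square difference of centred log2 values over the 9 libraries) for 2340 genes in bins of 0.1. Npcd lies at the left edge at 0.17, Ezh1 at 0.41 and Ezh2 at 2.57.

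After Npcd, the nearest genes to Cbx7 in pattern, leaving out genes with no proper name, were Gyltl1b, a glycosyltransferase that acts on dystroglycan (departure 0.22), Glul, glutamine synthetase (0.28), Stat4, a transcription factor of cytokine signalling (0.28), and Smpdl3a, a phosphodiesterase related to acid sphingomyelinase (0.31). The unnamed gene 5830403L16Rik lay between Stat4 and Smpdl3a. Gyltl1b had 125, 89.2 and 41.9 normalized counts in libraries 3, 4 and 8 and 8.39 to 21.7 in the other 6. Glul had 3312, 2988 and 689 there and 215 to 404 in the other 6, and Stat4 had 1259, 860 and 335 there and 99.3 to 225 in the other 6. Those nearest to Npcd after Cbx7 were Gyltl1b (0.24), the endosomal adaptor Appl2 (0.25), Itga3, an integrin alpha subunit (0.30), and Smpdl3a (0.30). Appl2 had 428, 296 and 121 in libraries 3, 4 and 8 and at most 47.1 in the others. Itga3 was at 0 reads in libraries 1, 2, 5, 6 and 7 and at most 22.4 normalized counts, so its place rests on few reads. Libraries 3, 4 and 8 were the 3 highest for all of these named genes, as they were for Cbx7.

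No other gene was measured in the neighbourhood. GENCODE M21 places 34 genes within 250 kb of Cbx7 or Npcd, 19 of them protein-coding, and the table used here covers the 2 members alone. The nearest measured genes, taken after their values were seen, lie 601 to 977 kb away, and they did not share 1 pattern. On the Npcd side, Micall1, a regulator of endocytic recycling at a distance of 653 kb, had 75.5 and 44.6 normalized counts in libraries 3 and 4 and 10.8 to 31.9 in the others, and 1700088E04Rik had 22.4 and 12.6 there and 1.40 to 6.29 in the others. On the Cbx7 side, Grap2, a T cell and platelet signalling adaptor 601 kb away, had 0 and 1.14 normalized counts in libraries 3 and 4 and 12.6 to 134 in the others. The purine synthesis enzyme Adsl, 977 kb away, had 2126 and 2822 there and 4018 to 7849 in the others.

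Among the other Polycomb genes, those of PRC2 varied most. Of 57 genes of PRC1, PRC2 and the Polycomb deubiquitinase complex, 8 were matched in the table, and Cbx7 was the only one of 14 canonical PRC1 genes. Of the 6 that passed the filter besides Cbx7, 3 had a range of at least 4-fold, set beside the 66.4% of all filtered genes. Their median range was 8.34-fold, against 6.16-fold over all filtered genes. Reads of all 6 differed between libraries (chi-square test with Benjamini-Hochberg adjustment over 2341 genes), as did those of 98.7% of filtered genes, so this passing count says nothing particular about them. In 3 of the 6 the 2 highest libraries were 3 and 4 (51.0% of all genes), and in 2 they were the 2 lowest (40.8%). The list is short, and its shares do not stand out from those of the table.

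Ezh1 and Ezh2, the alternative methyltransferases of PRC2, went opposite ways over the libraries. Ezh1, the form known from resting cells, had 102, 62.8, 1016, 783, 81.5, 79.7, 49.1, 218 and 116 normalized counts in libraries 1 to 9. Libraries 3, 4, 8 and 9 were the 4 highest in that order, as for Cbx7, and its range was 20.7-fold (counting interval 14.5 to 30.4), or 4.44-fold without libraries 3 and 4. Ezh2, the form known from dividing cells, had 723, 1240, 93.2, 243, 1278, 1157, 1127, 449 and 792. Here libraries 3, 4 and 8 were the 3 lowest, in the reverse order of Cbx7, and the range was 13.7-fold (10.9 to 17.4), or 2.85-fold without libraries 3 and 4. Libraries 3 and 4 had 10.9 and 3.23 counts of Ezh1 per count of Ezh2, library 8 had 0.486 and the other 6 had 0.0436 to 0.146. Phf1, an accessory subunit that helps PRC2 bind chromatin, had 340 and 174 in libraries 3 and 4 and 7.61 to 33.6 in the others, a 44.7-fold range (interval 21.4 to 112) that was 4.41-fold without these libraries. Ezh1 and Phf1 were highest and Ezh2 was lowest in libraries 3 and 4 under the deposited and the 3 alternative scalings.

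In the deposited scaling none of these followed Cbx7 as closely as Npcd did. The departure from Cbx7 was 0.41 for Ezh1, 0.61 for Phf1 and 2.57 for Ezh2. Under quantile normalization Ezh1 departed less than Npcd, by 0.51 against 0.54. The ratio of Ezh1 to Cbx7 spread 2.53-fold over the libraries and that of Phf1 to Cbx7 3.97-fold, beside 1.41-fold for Npcd. Over the 7 libraries without 3 and 4, r with Cbx7 was 0.73 for Ezh1, 0.66 for Phf1 and -0.72 for Ezh2. Without libraries 8 and 9 as well it was -0.41, 0.19 and 0.37, beside 0.97 for Npcd. The 5 libraries left had 23 to 40 reads of Cbx7, and neighbouring levels there did not differ beyond counting error. These values of r therefore cannot decide which relations hold without libraries 8 and 9.

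**Figure D5:**
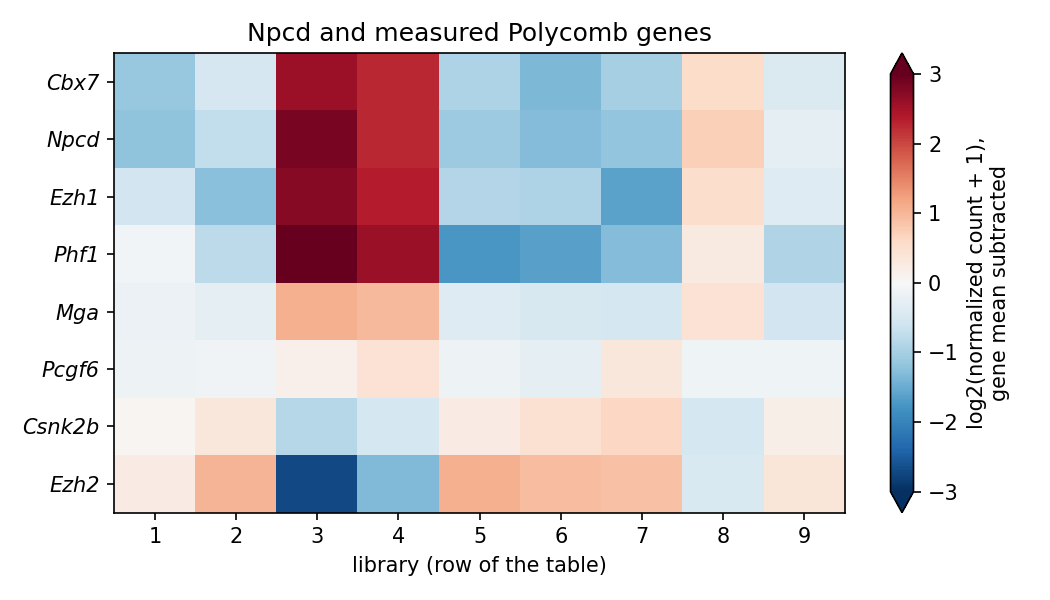
Log2(normalized count + 1) minus the gene's mean over the 9 libraries, for Npcd and the 7 Polycomb genes that passed the filter. Cbx7, Npcd, Ezh1 and Phf1 are highest in libraries 3 and 4, where Ezh2 is lowest, and Pcgf6 is nearly even.

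Subunits of variant PRC1, which lacks the Polycomb chromobox proteins such as Cbx7, varied less. Pcgf6, which defines 1 of these complexes, lay between 104 and 172 normalized counts, a 1.66-fold range (interval 1.25 to 2.22) with libraries 3 and 4 in no fixed place, since they were the highest under scaling to the table total and the lowest under quantile normalization. Mga, its DNA-binding partner, had 67.2 and 62.9 in libraries 3 and 4 and at most 43.0 in the others, but was not highest in both under quantile normalization. Csnk2b, the regulatory subunit of casein kinase 2, had 1033 and 1297 there and 1307 to 2877 in the others, and was not lowest in both under scaling to the table total or quantile normalization. Auts2, another variant subunit, did not pass the filter and had at most 3 reads in any library.

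The remaining chromatin genes of the lists had ranges below the table's median of 6.16-fold. Of 12 genes for trithorax proteins, which oppose Polycomb, and for H3K27 demethylases, 4 were matched. Of the 4, 2 had a range of at least 4-fold, beside 66.4% of all filtered genes. Of the H3 methyltransferase genes, Kmt2b reached 28.3 normalized counts and Kmt2c 109 in library 3, with ranges of 5.06-fold (interval 1.74 to 20.1) and 5.89-fold (3.22 to 11.8). Libraries 3 and 4 were both highest for Kmt2c except under quantile normalization, and for Kmt2b only under scaling to the table total. Ash1l lay between 49.1 and 175 and the scaffold gene Wdr5 between 1086 and 2521. Of 8 other chromobox and chromodomain genes, 2 were matched. Cbx1, a heterochromatin protein, lay between 229 in library 3 and 800 in library 7, and libraries 3 and 4 were its lowest under the deposited and the 3 alternative scalings. Cdyl, a chromodomain corepressor, lay between 9.84 and 23.0 and missed the threshold of the chi-square test between libraries (adjusted p = 0.263). Thus Cbx1, the only other chromobox gene matched by name, was lowest in the libraries where Cbx7 was highest, as were 40.8% of all filtered genes. The Npcd column, which can hold reads of the chromobox gene Cbx6, was highest there.

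Of the cyclin-dependent kinase inhibitors, 2 of 7 list genes were matched. Cdkn1c, an imprinted inhibitor known from quiescent stem cells, had 11.5, 43.2, 2934, 1032, 19.6, 19.6, 33.8, 165 and 127 normalized counts in libraries 1 to 9. Libraries 3, 4, 8 and 9 were the 4 highest, as for Cbx7, while the range of 255-fold (interval 124 to 636) was far wider and was 14.3-fold without libraries 3 and 4. Libraries 3 and 4 were its highest under the deposited and the 3 alternative scalings. Cdkn2d lay between 609 in library 3 and 1602 in library 9. The Polycomb target Cdkn2a was not analysed here. Of the sort and lineage markers, Ly6a encodes Sca1 and Itga2b encodes CD41, surface proteins that the sort gates used. The stem cell genes Procr and Ly6a reached 5639 in library 3 and 5772 in library 4 and were at most 97.5 and 187 in the other 7 libraries, and the megakaryocyte genes Itga2b and Pf4 were lowest in library 3, at 1616 and 899.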

How the data were processed

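The deposited file is a table of normalized counts (a signal that the authors scaled for each library), in which 2402 columns are genes and 9 rows have no name. Bowtie2, STAR, DESeq and the mm10 build are listed, without roles or versions, per the submitters' processing notes. Read assignment, annotation and gene choice were not stated there. Rows were not assigned to samples, so the planned limma comparisons of groups were not run, and 0 other columns of per-sample values were set aside.

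Small values of a row came in multiples of the value of 1 read, 0.724 to 1.96 normalized counts. Division by it gave whole numbers (tolerance 0.1) for 100% of values up to 1000 reads. Where no read was seen, the limit is 3 reads, which is 2.17 to 5.89 normalized counts. Intervals are exact binomial (Clopper-Pearson), conditional or Poisson ones at 95%.

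Counts of genes by range, and departures, used a pseudocount of 1, while the printed range of a gene is the ratio of its deposited values. Exons came from GENCODE M21, in which 2259 symbols matched. The members and lists were chosen with earlier results of these data known. Named genes were the pair, measured genes within 250 kb, all measured canonical PRC1 genes, from each other list the 2 members of highest median and the 2 of widest range, the 5 genes nearest in pattern to each member (unnamed or predicted genes left out), and 4 sort or lineage markers. The named markers of other blood cells were picked from their list outside this rule. Read recovery and the chi-square test were tested on simulated data for 2341 genes (100% of reads recovered, 80% of 2-fold changes found and 0.374% of unchanged genes called). The simulated data held counting error alone, with changes in 1 library. The check therefore does not cover other variation between samples. Python 3.11.15, scipy 1.17.1 and statsmodels 0.14.6 were used.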

Additional observations from a re-analysis of the deposited data

How the results depend on the processing

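No paired analysis was possible because the rows carry no sample names. The size of the ranges depended on the scaling and on libraries 3, 4 and 8. For Cbx7 the range was 30.4-fold under scaling to the table total, 10.2-fold under median-of-ratios scaling and 8.70-fold under quantile normalization, 3.81-fold without libraries 3 and 4, and, in an alternative added after seeing the data, 1.91-fold without libraries 3, 4 and 8. For Npcd the same settings gave 38.0, 11.6, 23.4, 4.10 and 2.02-fold, and leaving out 1 library at a time gave 12.1-fold (without library 3) to 17.9-fold. Libraries 3 and 4 were the 2 highest for both genes under all 4 scalings. The other scalings moved the median of all genes in a library by up to -0.81 (library 7, table total), -0.92 (library 3, median of ratios) and 0.56 (library 7, quantile) on the log2 scale. They were computed from the listed genes alone, and reads of 98.7% of filtered genes differed between libraries. Which scaling is nearest to the true levels was not tested. The ratio of Npcd to Cbx7 reads spread 1.30-fold to 1.41-fold under every library setting tried. The departure of Npcd from Cbx7 lay between 0.13 and 0.18 under 15 settings and was 0.54 under quantile normalization, which rescales values by their rank, so that genes at different levels of a library are rescaled by different factors. The count of Polycomb genes besides Cbx7 with a range of at least 4-fold was 2 to 4 under 16 settings and 0 without libraries 3, 4 and 8. Of the 5 genes nearest in pattern, 2 were the same for each member when ranked by Pearson r without libraries 3 and 4. The cause was not tested. With 23 to 40 reads of Cbx7 in 5 libraries, neighbouring levels among these were not separable.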
